A study of Mus musculus with 11 samples.

Results

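Runx1, Runx2 and Runx3, their shared partner Cbfb, and the skeletal transcription factors Sox9, Msx1, Msx2 and Dlx5 were followed in RNA sequencing of injured and uninjured mouse heart. They were chosen by gene symbol, and the 8 genes are 8 of the 15274 genes in the deposited table. The 11 libraries came from hearts of 6 mice of 8 weeks: injured regions of C3H/HeJ (C3H, n = 2), uninjured regions of C3H (n = 3), injured regions of C57BL/6J (B6, n = 3) and uninjured regions of B6 (n = 3). The titles name day 7. The labels name no allele or agent, and the sources used here do not say by what means the hearts were injured. The labels number the mice, and 5 of the 6 hearts gave a library from each region.

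Runx proteins bind DNA through a runt domain, and Cbfb, which binds no DNA itself, joins them and raises their affinity for it. Runx1 is known for its place in blood cell formation, Runx2 for osteoblast differentiation, Runx3 for T cells, NK cells and sensory neurons, and Sox9 for cartilage and for valve and fibroblast-like cells of the heart. Msx1, Msx2 and Dlx5 are homeodomain factors of the skull, limb and jaw, and some of them act in response to bone morphogenetic proteins (BMPs).

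Values are normalised read counts, the gene's reads divided by the size factor of its library, and libraries held 9699985 to 22138459 reads assigned to genes. All 8 genes passed the filter on low values (at least 10 in at least 2 libraries), as did 14751 genes in all. In C3H injured against C3H uninjured regions, 9 of 10 macrophage and monocyte markers rose, 8 of 10 cardiomyocyte markers fell and 5 of 10 fibroblast markers rose (limma, adjusted p under 0.05), beside 15.3% of all genes tested called higher and 15.4% lower. With 1 library left out, the calls were 6 to 10 for macrophage and monocyte, 4 to 8 for cardiomyocyte and 2 to 6 for fibroblast markers. The summed macrophage markers ranged from 76945 to 134304 in C3H injured, 12943 to 22662 in C3H uninjured, 37468 to 52044 in B6 injured and 23479 to 32668 in B6 uninjured libraries. In bulk tissue, fewer cells of a type and less RNA per cell cannot be told apart. Every C3H library had high Xist and every B6 library high Y-linked genes, so that strain and sex cannot be told apart in the comparisons between strains.

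The Runx genes are shown first by the promoter windows in which their own binding motif recurs. RefSeq windows of 250 bases before to 50 bases after an annotated start (GRCm38.p6) were matched for Runx1, Runx2, Runx3, Cbfb, Msx1 and Msx2, 6 of the 8 genes, in 8 windows. Dlx5 and Sox9 were not matched. The windows of the first starts of Runx1 (chr16:92826025-92826324, minus strand), Runx2 (chr17:44814578-44814877, minus strand) and Runx3 (chr4:135120395-135120694, plus strand) are printed on the strand of the gene, and the capitals mark the letters ACCACA, which are TGTGGT on the opposite strand.
Runx1: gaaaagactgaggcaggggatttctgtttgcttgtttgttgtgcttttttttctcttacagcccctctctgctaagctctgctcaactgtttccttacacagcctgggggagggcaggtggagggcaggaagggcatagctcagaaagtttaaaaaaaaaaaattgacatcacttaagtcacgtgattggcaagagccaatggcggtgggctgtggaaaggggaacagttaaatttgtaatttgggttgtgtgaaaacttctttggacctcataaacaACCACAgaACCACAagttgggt
Runx2: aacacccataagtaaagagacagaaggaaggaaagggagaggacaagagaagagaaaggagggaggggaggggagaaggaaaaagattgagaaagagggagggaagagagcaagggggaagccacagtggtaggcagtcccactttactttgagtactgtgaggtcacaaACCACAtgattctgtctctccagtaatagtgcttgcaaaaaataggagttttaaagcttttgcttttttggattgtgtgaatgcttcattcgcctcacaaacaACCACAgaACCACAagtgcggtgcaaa
Runx3: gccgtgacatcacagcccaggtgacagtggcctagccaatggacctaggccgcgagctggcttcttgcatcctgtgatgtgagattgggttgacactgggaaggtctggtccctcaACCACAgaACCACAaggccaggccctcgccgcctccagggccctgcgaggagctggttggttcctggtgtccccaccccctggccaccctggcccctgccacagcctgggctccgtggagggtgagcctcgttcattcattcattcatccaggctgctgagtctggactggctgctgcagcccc
The 3 windows share an 18-base block, CAACCACAGAACCACAAG, with a pair of the motifs in it. Counted from the annotated start as base 0, the block lay at bases 26 to 43 in Runx1, 21 to 38 in Runx2 and -136 to -119 in Runx3. TGTGGT was searched on both strands and occurred 2 times in Runx1, 3 times in Runx2 and 2 times in Runx3. The other 5 windows, including the second starts of Runx1 and Runx3, held 0 copies. The related letters TGCGGT, searched on both strands, occurred 1 time in these windows, in Runx2 right after the block. Of all 32851 windows, 16.8% held TGTGGT, 1.81% held at least 2 copies, 0.183% at least 3, and 6.45% held TGCGGT. The block occurred in 4 of the 32851 windows, those of the 3 Runx genes and of Gm16225, whose window overlaps that of Runx3 on the other strand. The block was taken as the longest run of letters common to the 3 Runx windows, so its presence there was fixed in advance. A match of letters is a description and not a bound site, and the gene-level counts do not separate the starts of Runx1 or of Runx3.

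**Figure D1:**
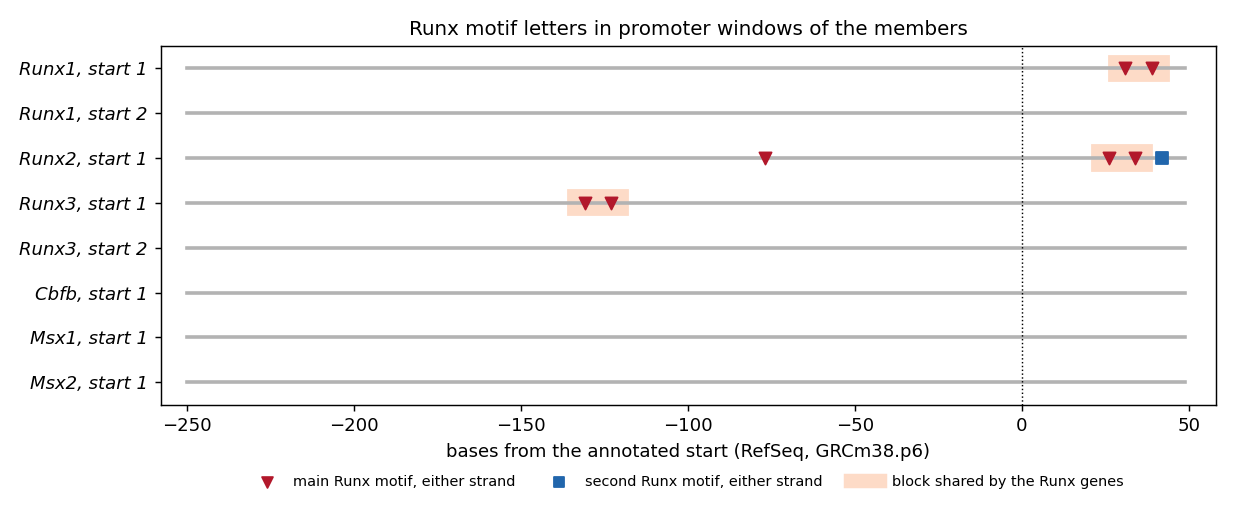
Positions of the motif letters in the 8 promoter windows of 6 genes, with bases from the annotated start on the horizontal axis and a row per window. Triangles are TGTGGT and the square is TGCGGT, on either strand, and the shaded spans are the shared block, which lies after the start in Runx1 and Runx2 and before it in Runx3.

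The comparison of C3H injured with C3H uninjured regions asked how injury changed these genes in that strain. All of the Runx genes, Cbfb and Sox9 rose, 5 of the 8 genes, while 15.3% of all genes tested were called higher, 15.4% lower and 30.7% in either direction (limma on log2 of the normalised count plus 1, Benjamini-Hochberg adjusted p under 0.05). Runx1 rose most of the 8, and Msx1, Msx2 and Dlx5 did not pass the test.

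Runx1 had 1442 and 1167 normalised counts in C3H injured regions, 127, 72.2 and 58.6 in C3H uninjured regions, 380, 521 and 534 in B6 injured regions and 293, 174 and 202 in B6 uninjured regions. The C3H injured libraries stood above every other library and the C3H uninjured ones below every other, with no overlap between any of the 4 groups. Its log2 change with injury was 3.98 in C3H (SE 0.34, adjusted p = 2.64e-05), a 15.8-fold rise in the fitted values. Within a heart the injured region had 11.4 times the normalised count of the uninjured one in C3H mouse 1 and 16.2 times in C3H mouse 2. Exons of Runx1 overlap those of Gm26626 on the opposite strand, and those of Runx2 overlap Runx2os1. No source used here gives the strandedness of the counting, and neither overlapping gene is in the table, so their reads cannot be told apart.

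Runx2 had 254 and 281 normalised counts in C3H injured, 53.5, 37.7 and 37.3 in C3H uninjured, 117, 136 and 133 in B6 injured and 82.8, 62.2 and 82.5 in B6 uninjured regions. Its groups took the same order as those of Runx1, again with no overlap between any of them. The change in C3H was 2.63 (SE 0.29, adjusted p = 0.000114), with ratios within a heart of 4.75 and 7.44.

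Runx3 had 137 and 148 normalised counts in C3H injured, 12.9, 25.1 and 7.99 in C3H uninjured, 48.9, 64.4 and 61.9 in B6 injured and 35.5, 14.5 and 27.1 in B6 uninjured regions. The uninjured groups of the strains overlapped each other, and every injured library stood above every uninjured one. It rose by 3.28 in C3H (SE 0.50, adjusted p = 0.000793). The C3H uninjured value rests on 46 reads over 3 libraries, against 369 reads over the 2 C3H injured libraries, so its ratios within a heart, 10.7 and 5.91, are loose.

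Cbfb had 1304 and 1272 normalised counts in C3H injured, 723, 699 and 656 in C3H uninjured, 902, 968 and 937 in B6 injured and 952, 776 and 767 in B6 uninjured regions. It varied far less than its Runx partners, and the C3H groups did not overlap. The change in C3H was 0.89 (SE 0.19, adjusted p = 0.00410), and the ratios within a heart were 1.80 and 1.82. The summed normalised counts of the 3 Runx genes were 1.25 to 1.41 times those of Cbfb in C3H injured, 0.158 to 0.267 times in C3H uninjured, 0.605 to 0.778 times in B6 injured and 0.324 to 0.432 times in B6 uninjured libraries. These ratios did not overlap between any of the 4 groups. They are not corrected for exon length. Per kb of exon (GENCODE M21) the Runx sum was below Cbfb in every library. It was 0.531 to 0.586 times Cbfb in C3H injured and 0.0668 to 0.111 times in C3H uninjured libraries. In B6 it was 0.256 to 0.327 times in injured and 0.134 to 0.182 times in uninjured libraries.

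**Figure D2:**
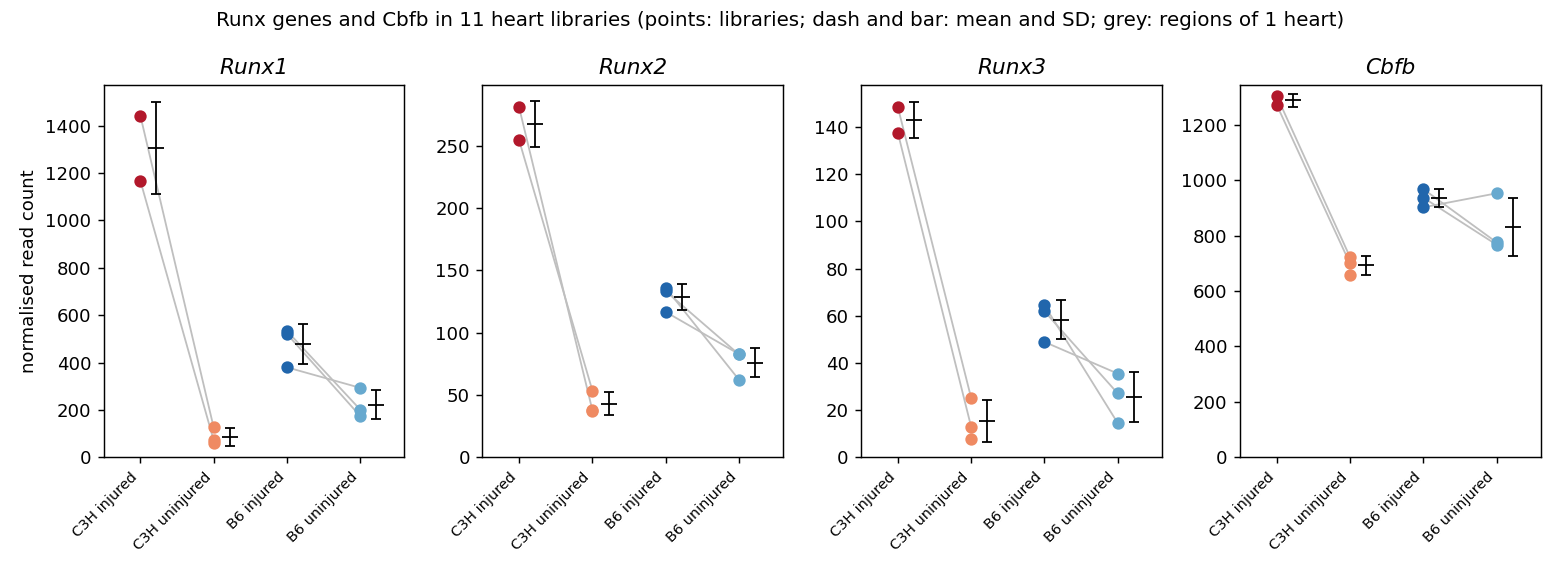
Normalised read counts of Runx1, Runx2, Runx3 and Cbfb in each of the 11 libraries (points), with the mean and SD of each group beside them and grey lines joining the regions of 1 heart. Runx1 lies at 1167 to 1442 in C3H injured and at 58.6 to 127 in C3H uninjured regions, and the B6 groups lie between these.

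Sox9 had 683 and 180 normalised counts in C3H injured, 184, 19.9 and 108 in C3H uninjured, 248, 275 and 321 in B6 injured and 194, 106 and 113 in B6 uninjured regions. The lower C3H injured library lay below the highest C3H uninjured library, which came from the other heart, so the C3H groups overlapped. Within a heart the injured region was higher in both, 3.71 and 9.06 times. The change in C3H was 2.23 (SE 0.76, adjusted p = 0.0435), and with the animal as a fixed term it was 2.50 (SE 0.37, adjusted p = 0.000759), where 34.9% of all genes tested were called. In the unpaired fit the call held in 3 of the 11 fits that left out 1 library. It was lost without C3H injured 1 (1.27, adjusted p = 0.345), C3H uninjured 2 (1.31, adjusted p = 0.0960) or 3, any B6 injured library, or B6 uninjured 1 or 2, and in a fit of the C3H libraries alone (adjusted p = 0.127), under quantile normalisation (adjusted p = 0.0563) and without the mean-variance trend (adjusted p = 0.0700).

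Msx1 had 26.8 and 24.0 normalised counts in C3H injured, 29.7, 12.6 and 19.5 in C3H uninjured, 30.2, 35.4 and 22.3 in B6 injured and 17.7, 8.30 and 17.7 in B6 uninjured regions. The C3H groups overlapped, and the change in C3H was 0.37 (SE 0.50, adjusted p = 0.609, 95% confidence interval -0.73 to 1.47). Msx2 was at 6.36 to 8.65 in C3H injured, 6.93 to 12.4 in C3H uninjured, 4.71 to 9.46 in B6 injured and 3.55 to 14.1 normalised counts in B6 uninjured regions. All 4 of its groups overlapped, and its change in C3H was -0.34 (SE 0.65, adjusted p = 0.716, 95% confidence interval -1.76 to 1.08).

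Dlx5 had 19.9 and 15.5 normalised counts in C3H injured, 20.8, 36.6 and 39.1 in C3H uninjured, 0.815, 0.786 and 2.58 in B6 injured and 3.55, 0 and 3.54 in B6 uninjured regions. Both C3H groups stood far above both B6 groups, and the C3H injured libraries lay just below the C3H uninjured ones. The B6 values are 1, 1 and 3 reads in injured and 3, 0 and 3 reads in uninjured libraries. The change with injury in C3H was -0.78 (SE 0.77, adjusted p = 0.466, 95% confidence interval -2.47 to 0.90). In C3H 4 of the 8 genes were higher in every injured than in every uninjured library (Runx1, Runx2, Runx3 and Cbfb), against 29.6% of all genes tested, and Dlx5 was lower in every one, against 29.7%.

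**Figure D3:**
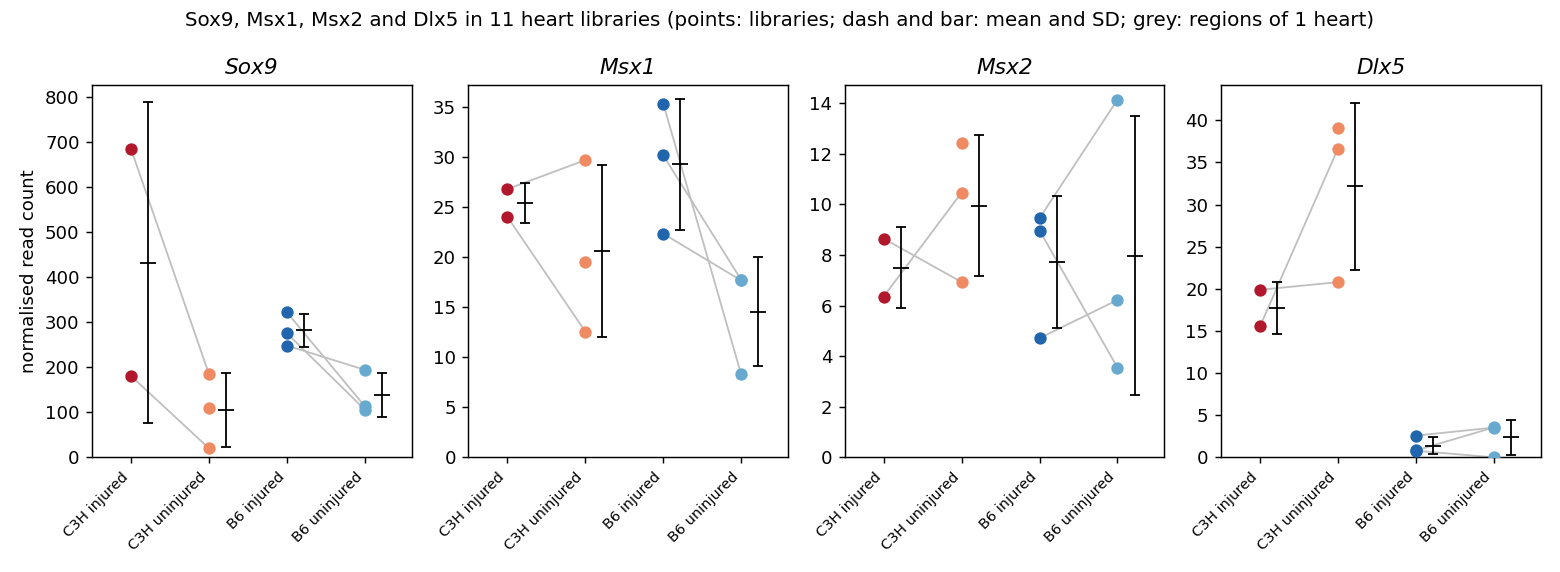
Normalised read counts of Sox9, Msx1, Msx2 and Dlx5 in each of the 11 libraries (points), with the mean and SD of each group beside them and grey lines joining the regions of 1 heart. Sox9 spreads from 180 to 683 in C3H injured and from 19.9 to 184 in C3H uninjured regions, and Dlx5 reaches 15.5 to 39.1 in C3H and at most 3.55 in B6.

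Levels can be compared between genes only per length of exon, here the union of exons in GENCODE M21, which is not the authors' annotation. Per kb, C3H injured libraries averaged 442 ± 7.78 normalised counts of Cbfb, 175 ± 26.1 of Runx1, 104 ± 86.0 of Sox9, 37.7 ± 2.62 of Runx2 and 34.2 ± 1.85 of Runx3 (SD, n = 2). Msx1 at 13.1 ± 1.02, Dlx5 at 12.5 ± 2.16 and Msx2 at 3.06 ± 0.659 followed. Sox9 overlapped Runx1 in that order, and Msx1 overlapped Dlx5. In C3H uninjured libraries Cbfb (238 ± 11.6) was followed by Sox9 (25.2 ± 19.9), Dlx5 (22.6 ± 6.97), Runx1 (11.5 ± 4.84), Msx1 (10.6 ± 4.46), Runx2 (6.04 ± 1.30), Msx2 (4.05 ± 1.14) and Runx3 (3.67 ± 2.11), each with n = 3. Each gene overlapped the next in that order, apart from Cbfb and Sox9 and apart from Runx2 and Msx2. In B6 injured libraries the order was Cbfb (321 ± 11.3), Sox9 (68.1 ± 9.00), Runx1 (64.2 ± 11.4), Runx2 (18.1 ± 1.48), Msx1 (15.1 ± 3.38), Runx3 (14.0 ± 1.99), Msx2 (3.14 ± 1.06) and Dlx5 (0.979 ± 0.722), each with n = 3. There Sox9 overlapped Runx1, Runx2 overlapped Msx1, and Msx1 overlapped Runx3. In B6 uninjured libraries the order was Cbfb (285 ± 35.9), Sox9 (33.3 ± 11.8), Runx1 (29.9 ± 8.38), Runx2 (10.7 ± 1.66), Msx1 (7.53 ± 2.81), Runx3 (6.16 ± 2.53), Msx2 (3.25 ± 2.25) and Dlx5 (1.66 ± 1.44), each with n = 3. Of these neighbours, Sox9 and Runx1 overlapped, Runx2 and Msx1 overlapped, and so did each pair after them. Runx1 made up 67.6% to 73.8% of the per-kb Runx total in C3H injured, 46.1% to 61.6% in C3H uninjured, 64.4% to 68.1% in B6 injured and 59.9% to 66.1% in B6 uninjured libraries. The count ratio of Runx1 to Runx2 was 4.16 to 5.67 in C3H injured, 1.57 to 2.37 in C3H uninjured, 3.26 to 4.01 in B6 injured and 2.44 to 3.54 in B6 uninjured libraries, with an overlap only between the B6 groups.

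The comparison of B6 injured with B6 uninjured regions asked the same of that strain. None of the 8 genes passed the test (0 called), while 0.0136% of all genes tested were called higher, 2 genes, and 0.00% lower by limma. An unadjusted p under 0.05 by limma was found for 1979 of the 14751 genes tested, 4 of the 8 among them. edgeR and DESeq2 on the reads recovered from the table also called 0 of the 8, beside 0.0136% (edgeR) and 0.306% (DESeq2) of all genes. Both fits with the animal as a block called 0 of the 8 as well, beside 0.136% of all genes (fixed term) and 0.108% (random term). Every B6 injured library was above every B6 uninjured library for 5 of the 8 genes (Runx1, Runx2, Runx3, Msx1 and Sox9), against 9.83% of all genes tested, and 0 of the 8 were lower in every one, against 7.69%.

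In B6 the log2 change of Runx1 was 1.12 (SE 0.31, adjusted p = 0.364, 95% confidence interval 0.45 to 1.78). Its ratios within a heart were 1.29, 2.99 and 2.65. Runx2 was at 0.76 (SE 0.26, adjusted p = 0.364), with ratios of 1.41, 2.18 and 1.62. The 3 hearts moved the same way for these genes, mouse 1 the least. Runx3 was at 1.23 (SE 0.45, adjusted p = 0.364), with ratios of 1.38, 4.44 and 2.28. The ratio of 4.44, of mouse 2, rests on 82 reads against 7 and is loose. Sox9 was at 1.07 (SE 0.68, adjusted p = 0.481), with ratios of 1.28, 2.60 and 2.84. Msx1 was at 1.01 (SE 0.45, adjusted p = 0.372). For each of these the injured region was the higher one in all 3 hearts. Cbfb was at 0.18 (SE 0.17, adjusted p = 0.632), and its ratio was 0.947 in mouse 1, 1.25 in mouse 2 and 1.22 in mouse 3. Msx2 was at 0.09 (SE 0.58, adjusted p = 0.957) and Dlx5 at -0.28 (SE 0.69, adjusted p = 0.875).

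The difference of the injury effects, C3H minus B6, asked whether the strains responded to a different degree. Runx1 and Runx2 rose more in C3H, 2 of the 8 genes, while 1.50% of all genes tested were called higher in C3H, 0.0678% lower and 1.57% in either direction. The difference was 2.86 for Runx1 (SE 0.46, adjusted p = 0.0113, 95% confidence interval 1.86 to 3.86) and 1.87 for Runx2 (SE 0.39, adjusted p = 0.0337, 95% confidence interval 1.02 to 2.72). The call on Runx1 was lost without C3H injured 2 (3.02), a fit with 1 library in that group in which calls over all genes fell as well. Over all genes, 231 were called with all libraries, 83 without B6 uninjured 1 and 272 without B6 uninjured 3. The call on Runx2 was lost with the animal as a fixed block (1.78, adjusted p = 0.0520), where 3.33% of all genes were called, and held in 2 of the 11 fits that left out 1 library, B6 uninjured 2 or C3H uninjured 1, while its value lay between 1.78 and 2.04 in the 11 fits.

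Runx3 differed by 2.05 between the strains' effects (SE 0.67, adjusted p = 0.180, 95% confidence interval 0.59 to 3.50) and was called by DESeq2 (2.09, adjusted p = 0.0337), which called 5.00% of all genes. Cbfb differed by 0.72 (SE 0.25, adjusted p = 0.202) and Sox9 by 1.16 (SE 1.02, adjusted p = 0.661, 95% confidence interval -1.07 to 3.38). Neither passed the test, and the interval of Sox9 spans 0. Msx1 was at -0.64, Msx2 at -0.43 and Dlx5 at -0.51, with adjusted p of 0.729 to 0.879. The intervals of these 3 also span 0, and none of this shows that the strains responded alike.

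**Figure D4:**
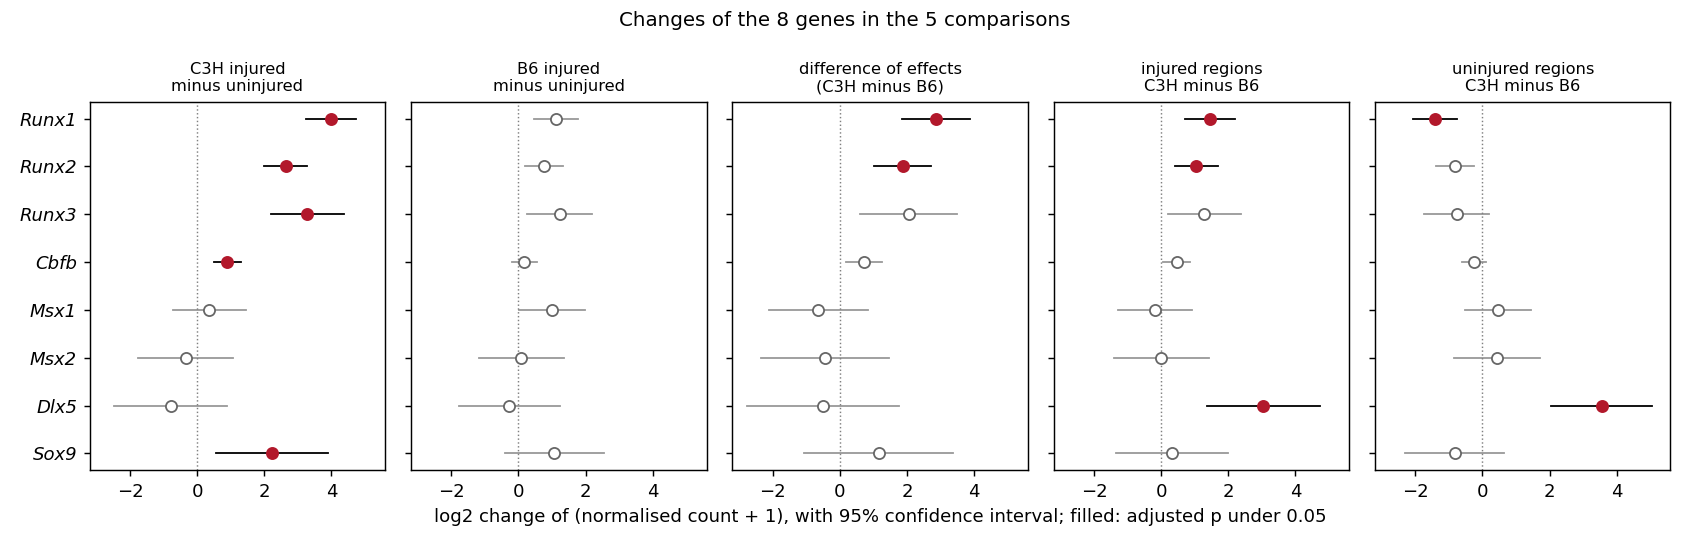
Log2 change of each of the 8 genes in the 5 comparisons, with its 95% confidence interval; filled points have an adjusted p under 0.05. In C3H 5 points are filled and in B6 0, and Runx1 and Runx2 are filled for the difference of the effects.

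Set against each other directly, the injured regions of the strains differed in 3 of the 8 genes, all higher in C3H, while 3.72% of all genes tested were called higher in C3H, 3.34% lower and 7.06% in either direction. Runx1 was higher by 1.45 (SE 0.34, adjusted p = 0.0271), Runx2 by 1.05 (SE 0.29, adjusted p = 0.0494) and Dlx5 by 3.04 (SE 0.77, adjusted p = 0.0372). Dlx5 passed the filter on low values only through the C3H libraries, where it is high, so its place among the called genes is a description, here and in the uninjured regions. It was called in both comparisons with no filter as well. These calls were fragile. Without C3H injured 1, C3H injured 2, B6 injured 1 or B6 injured 2 each of the 3 was lost. Over all genes, 1042 were called with all libraries, 334 without B6 injured 1 and 438 without B6 injured 2. Runx2 was lost as well without C3H uninjured 3, B6 injured 3 or B6 uninjured 1, and Dlx5 without C3H uninjured 3. A pseudocount of 0.5 lost Runx2 (adjusted p = 0.0507) and Dlx5 (adjusted p = 0.0569), and TMM scaling (adjusted p = 0.0519) or no filter (adjusted p = 0.0534) lost Runx2, as did the animal as a random term (1.02, adjusted p = 0.0711). Runx3 was at 1.29 (SE 0.50, adjusted p = 0.140) and Cbfb at 0.46 (SE 0.19, adjusted p = 0.154). For 5 of the 8 genes (the Runx genes, Cbfb and Dlx5) every C3H injured library was above every B6 injured one, against 24.9% of all genes tested, and 0 of the 8 were below, against 24.2%.

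In uninjured regions Runx1 was lower in C3H and Dlx5 higher, 2 of the 8 genes, while 1.32% of all genes tested were called higher in C3H, 1.79% lower and 3.10% in either direction. Runx1 was at -1.41 (SE 0.31, adjusted p = 0.0288), the opposite direction to the injured regions. Dlx5 was higher by 3.55 (SE 0.69, adjusted p = 0.0167), 100 reads over 3 C3H libraries against 6 reads over 3 B6 libraries. Both calls were lost without C3H uninjured 2 or C3H uninjured 3 and in a fit of the uninjured libraries alone (adjusted p = 0.125 for Runx1 and 0.0560 for Dlx5). That of Runx1 was lost as well without B6 injured 2 or B6 uninjured 1. Over all genes, 458 were called with all libraries, 296 without C3H uninjured 2 and 246 without C3H uninjured 3. The fit of the uninjured libraries alone called 191. Runx2 was at -0.82 (SE 0.26, adjusted p = 0.131), Runx3 at -0.76 (SE 0.45, adjusted p = 0.440) and Sox9 at -0.83 (SE 0.68, adjusted p = 0.605). Runx1, Runx2 and Cbfb were lower in every C3H uninjured than in every B6 uninjured library, against 9.27% of all genes tested, and Dlx5 was higher in every one, against 7.63%.

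The summed markers of macrophages, fibroblasts and osteoclasts were higher in C3H injured than in C3H uninjured libraries. These sums are given beside the Runx genes. Each sum adds normalised counts, so its most abundant gene weighs most. In C3H injured libraries Lyz2 was at 44705 to 75536 of the 76945 to 134304 macrophage-marker counts. Col3a1 was at 185054 to 249675 of the 417496 to 566226 fibroblast-marker counts. Ctsk was at 4439 to 13122 of the 10047 to 28738 osteoclast-marker counts. Runx2 was at 2.09 to 3.30 per 1000 summed macrophage-marker counts in C3H injured, 1.66 to 3.46 in C3H uninjured, 2.61 to 3.56 in B6 injured and 1.93 to 3.51 in B6 uninjured libraries. On that scale its 4 groups overlapped. Runx1 was at 8.69 to 18.7 in C3H injured, 3.19 to 8.20 in C3H uninjured, 8.87 to 14.2 in B6 injured and 5.39 to 8.98 in B6 uninjured libraries. On that scale the C3H groups of Runx1 did not overlap, and the injured groups of the strains did. The C3H groups of Runx3 overlapped there, at 1.10 to 1.79 in injured and 0.617 to 1.11 in uninjured libraries. Those of Sox9 overlapped as well, at 1.34 to 8.88 in injured and 0.878 to 11.9 in uninjured libraries. Per 1000 summed fibroblast-marker counts, Runx1 was at 2.55 to 2.80 in C3H injured, 0.591 to 1.50 in C3H uninjured, 0.966 to 1.43 in B6 injured and 0.853 to 1.09 in B6 uninjured libraries. On the fibroblast scale the C3H groups of Runx2 (0.449 to 0.672 in injured, 0.249 to 0.785 in uninjured) and of Runx3 (0.243 to 0.355 in injured, 0.0600 to 0.523 in uninjured) overlapped. The fibroblast-marker sums of C3H uninjured libraries ranged widely, from 48017 to 214489. The upper ends of both uninjured ranges are those of C3H uninjured 2, which had the lowest sum. Per 1000 summed osteoclast-marker counts, Runx1 was at 40.6 to 144 in C3H injured, 33.5 to 64.5 in C3H uninjured, 160 to 215 in B6 injured and 106 to 135 in B6 uninjured libraries. On that scale the C3H groups of Runx1 overlapped, and C3H injured lay below B6 injured. The part of these cell types in the changes was not tested. Of the other marker lists of 10 genes each, beside 30.7% of all genes called, 0 endothelial genes rose and 2 fell in C3H, 2 smooth muscle and pericyte genes rose and 1 fell, 0 epicardial genes were called, and 3 Schwann cell genes rose and 1 fell. With 1 library left out, the calls were 0 to 3 for endothelial, 1 to 4 for smooth muscle and pericyte, 0 to 1 for epicardial and 1 to 4 for Schwann cell genes.

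Bone and cartilage cells were checked by their defining markers. Of 8 osteoblast and osteocyte markers 3 were in the table, and Sp7, Bglap, Ibsp, Sost and Mepe were not analysed here. The 3 summed to 16.4 to 19.1 normalised counts in C3H injured, 5.33 to 44.0 in C3H uninjured, 12.6 to 17.2 in B6 injured and 0 to 16.6 in B6 uninjured libraries. They were near the floor in every group, and the groups overlapped. The 5 chondrocyte markers in the table (of 8) summed to 127 to 228 in C3H injured, 0 to 14.7 in C3H uninjured, 74.8 to 90.3 in B6 injured and 11.8 to 22.8 in B6 uninjured libraries. Of the 5, 3 passed the filter and were tested. Acan made up most of the sum in C3H injured libraries, where it was at 104 to 200. It was at 7.34 to 51.1 in B6 injured libraries. Osteoclast markers, all 10 in the table, summed to 10047 to 28738 in C3H injured, 1747 to 2076 in C3H uninjured, 2369 to 2715 in B6 injured and 1649 to 2168 in B6 uninjured libraries. The part of these cells in the changes of the 8 genes was not tested. Osteoclast markers were high in C3H injured libraries, and 6 of the 8 tested rose there, or 3 without C3H injured 2, beside 15.3% of all genes. Dcstamp, 1 of the 6, passed the filter only through the C3H injured libraries. Calcr, the calcitonin receptor, had 21 reads in 1 C3H injured library and 0 in each of the other 10 libraries.

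Listed partners and targets of these factors were read in the same comparison of C3H regions, in which the median log2 change of all genes tested was 0.01. Counts over all genes there were lower when a C3H injured library was left out, 19.0% without C3H injured 1 and 11.6% without C3H injured 2. Of 24 Runx cofactors and modifiers 2 rose and 4 fell, with a median of 0.28, beside 30.7% of all genes tested called. These 6 of 24 are a share below that over all genes and no result about the cofactors. Aes, a member of the Groucho family of corepressors, fell by 1.53 (SE 0.28, adjusted p = 0.00231). It averaged 5647 ± 1488 normalised counts in C3H injured and 16399 ± 3876 in C3H uninjured regions (SD, n = 2 and n = 3). Hey1 and Hes1, repressors downstream of Notch that bind Runx2, were at -1.04 (adjusted p = 0.0128) and -1.03 (adjusted p = 0.0432). Without C3H injured 2, 1 gene of this list was called, and Hey1 and Hes1 were lost. Without C3H injured 1, C3H uninjured 2, C3H uninjured 3 or B6 injured 2, 2 to 3 were called, and Hes1 was lost in the last 2 of these and without C3H uninjured 1 or B6 uninjured 1.

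Of 23 listed osteoblast genes 16 were in the table and 14 were tested. Sp7, Bglap, Bglap2, Bglap3, Ibsp, Mepe and Sost were not found. Of the 14 tested genes 8 rose and 1 fell, with a median of 2.17. Over all genes 15.3% were called higher and 15.4% lower. Spp1, the secreted phosphoprotein osteopontin, had 38800 and 52487 normalised counts in the C3H injured libraries and 160 to 377 in the C3H uninjured ones. It rose by 7.34 (SE 0.59, adjusted p = 2.09e-05). Tnfsf11, the cytokine RANKL, rose by 4.39 (SE 1.05, adjusted p = 0.00886), and Mmp13, a collagenase and known Runx2 target, rose by 4.21 (SE 0.63, adjusted p = 0.000757). Alpl, the alkaline phosphatase of mineralising cells, was the 1 that fell, by 1.08 (SE 0.30, adjusted p = 0.0178). Col1a1 and Postn, which rose, are in the fibroblast list as well. Without C3H injured 2 the count was 5 and Tnfsf11 was lost.

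Of 20 listed cartilage genes 14 were in the table and 11 were tested. Of the 11 tested genes 5 rose, with a median of 1.37, beside 15.3% of all genes called higher. Col11a1, a fibrillar collagen chain, rose by 7.31 (SE 0.85, adjusted p = 0.000163), to 3024 and 4081 normalised counts in C3H injured against 7.33 to 96.0 in C3H uninjured regions. Comp, a cartilage matrix protein, rose by 4.33 (SE 0.77, adjusted p = 0.00186). Acan, the proteoglycan aggrecan and a target of Sox9, rose by 6.17 (SE 0.99, adjusted p = 0.00108), with 378 reads over the 2 C3H injured libraries and 4 reads over the 3 C3H uninjured ones. It reached at most 3.14 normalised counts in C3H uninjured and 4.71 in B6 uninjured libraries. Acan, 1 of the 5, thus passed the filter only through injured libraries, where it is high, and its value is a description. Without C3H injured 1 or C3H uninjured 3 the count of called cartilage genes was 3.

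Of 34 listed other skeletal and mesenchymal transcription factors 19 were in the table and 17 were tested. Of the 17 tested genes 2 rose, with a median of 0.50. These 11.8% are below the 30.7% called over all genes and are no result about the list. The 2 were Trps1, a GATA-type repressor, at 2.47 (SE 0.45, adjusted p = 0.00201), and Twist1, a bHLH factor known to restrain Runx2, at 1.68 (SE 0.44, adjusted p = 0.0137). Twist1 was lost without C3H injured 1. Without C3H uninjured 2, 4 of these genes were called, and with the animal as a block 4 (fixed term) and 5 (random term) of these genes were called. Of 25 genes of BMP signalling 3 rose and 4 fell, with a median of -0.02. These 28.0% are near the 30.7% called over all genes and are no result about the list. Id2 and Id1, inhibitors of bHLH factors and known BMP targets, moved in opposite directions, at 1.80 (adjusted p = 0.00330) and -1.27 (adjusted p = 0.0123). Bmpr1b, a BMP receptor, was at 2.54 (adjusted p = 0.0490). It reached 10 normalised counts in the 2 C3H injured libraries alone, so it passed the filter only through the group where it is high, and its value is a description. Without C3H injured 2 the count of called BMP genes was 0, and without C3H uninjured 3 it was 4. Bmpr1b was called in 3 of the 9 leave-one-out fits in which it could be tested, and it was lost with the animal as a fixed term.

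Of 20 listed blood cell transcription factors and growth factor receptors 18 were tested. Of the 18 tested genes 11 rose and 0 fell, with a median of 1.79. Over all genes 15.3% were called higher and 15.4% lower. Csf2rb, the shared beta chain of receptors for GM-CSF and interleukins, rose by 3.43 (SE 0.36, adjusted p = 7.78e-05). Ikzf1, the lymphoid and myeloid factor Ikaros, rose by 3.10 (SE 0.43, adjusted p = 0.000448), and Csf3r, the G-CSF receptor, by 2.91 (SE 0.46, adjusted p = 0.00103). Of 16 T and NK cell genes, the cells for which Runx3 is known, 0 were called, beside 30.7% of all genes. The median of these 16 was 0.50. With the animal as a block, by DESeq2 and without B6 uninjured 1, 2 of these were called. In B6 0 genes were called in each of the 7 lists, beside 0.0136% of all genes. The medians there were 0.03 for the cofactors, 0.77 for osteoblast genes, 1.79 for cartilage genes and 0.69 for the other transcription factors. They were 0.20 for BMP signalling, 0.55 for the blood cell list and 0.93 for T and NK cell genes, beside 0.01 for all genes tested.

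**Figure D5:**
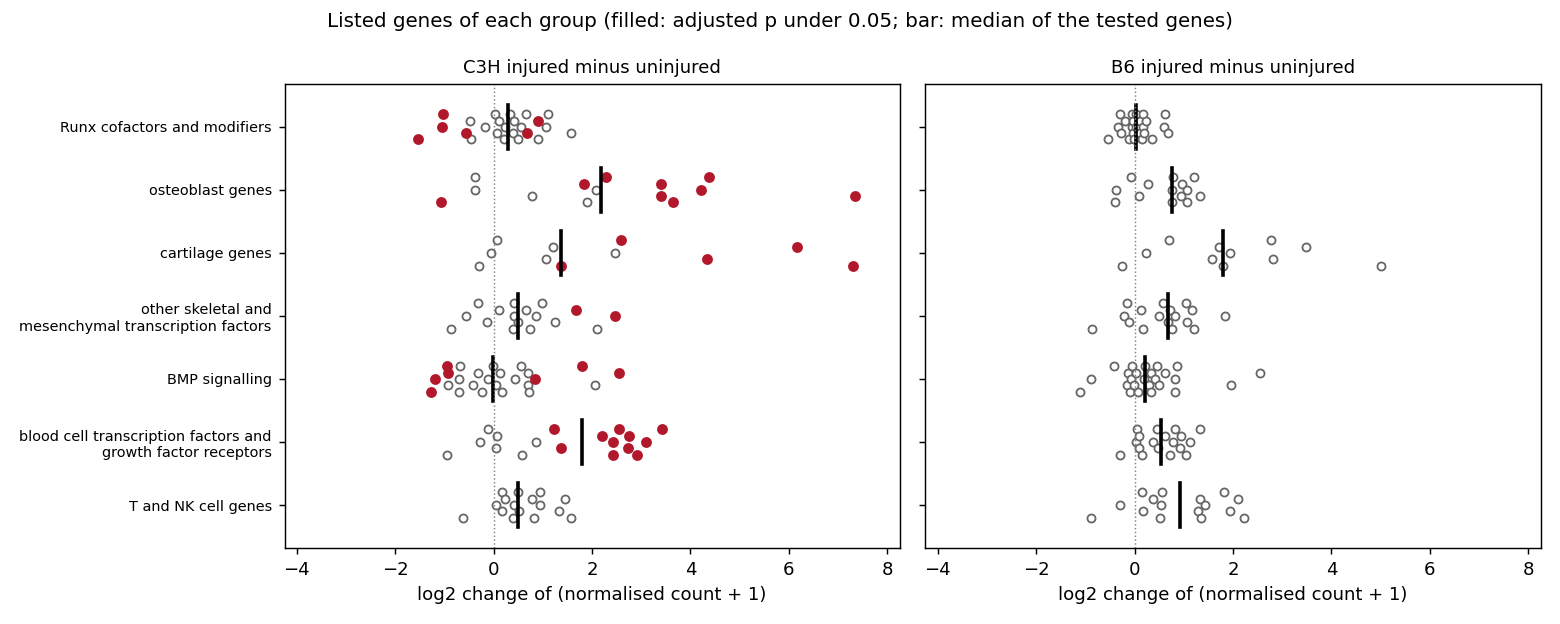
Log2 change of every tested gene of the 7 lists, C3H injured minus uninjured on the left and B6 injured minus uninjured on the right; filled points have an adjusted p under 0.05 and bars are medians. Filled points are in the C3H panel alone, 11 of 18 in the blood cell list and 8 above and 1 below 0 in the osteoblast list.

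The genes with the closest profile to each member over the 11 libraries were found by the root mean square (RMS) of the difference of centred log2 values, among about 11515 genes with a mean of at least 50. Runx1, whose own profile has an RMS of 1.43, was nearest to Wisp1 (0.30), a matricellular protein, then Capn6 (0.36), Gria3 (0.37), Slc11a1 (0.38), a metal transporter of phagocytes, and Lcp1 (0.39), an actin bundler of leukocytes. Runx2, with 0.93 of its own, was nearest to Cebpa (0.19), a myeloid transcription factor, then Csf2ra (0.20), the GM-CSF receptor alpha chain, Pik3cg (0.21), Selplg (0.21), the leukocyte ligand of P-selectin, and Pak1 (0.21). Runx3 was nearest to Dnm3os (0.33), Nox4 (0.34) and Ikzf1 (0.35). Sox9 was nearest to Sertad4 (0.25), Clec11a (0.29) and B3gnt9 (0.32). Cbfb was nearest to Parp11, Tram1 and Syt11, all at 0.14, where its own profile has 0.31. Msx1 was nearest to Rarg (0.27), Sulf2 (0.27) and Olfml1 (0.28), and Msx2 to Ccdc14 (0.32), Elp4 (0.34) and Gcc2 (0.35), where its own profile has 0.50. Dlx5 had no close neighbour, with Ush1c at 0.65, Baiap2l1 at 0.78 and Fmn1 at 0.80 of its own 1.81. These distances are descriptions over libraries that share animals, and they carry no test.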

How the data were processed

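The deposited signal is a table of gene-level read counts divided by the size factor of each library. Per the submitters' processing notes, the tools were TopHat2 2.0.11 (alignment), HTSeq 0.6.1 (counting) and DESeq (normalisation), and the build was mm9. Annotation, strandedness, filters and the version of DESeq were not given in these sources. Build mm9 is of B6. RNA came from a column kit and libraries followed the standard Illumina preparation, per the labels. Each library's values were whole multiples of 1 step (tolerance 1e-06), which gave its reads.

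Group means of log2(normalised count + 1) were fitted over all 11 libraries with limma 3.58.1 (R 4.3.3), with a trended prior, two-sided, on genes reaching 10 in 2 or more libraries, and adjusted by Benjamini-Hochberg over all 14751 genes at 0.05. The log2 scale with a pseudocount of 1 understates the change of low genes. The spread is that between libraries of a group, and only 2 to 3 mice per group limit its precision. edgeR 4.0.16 and DESeq2 1.42.0 on the recovered reads were alternatives.

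Same-numbered regions come from the same animal per the labels. The correlation of their residuals was 0.276, -0.0140 and 0.524 for B6 mice 1, 2 and 3, 0.305 for C3H mouse 1 and 0.575 for C3H mouse 2, and 0.392 was the consensus of a fit with the animal as a random term.

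The members, gene lists and tests were chosen with earlier results of these data known. Named genes are the 8 members, the 3 of each pathway list with the largest called change in C3H (fewer where fewer passed), Alpl and Calcr, added after their values were seen, and the nearest 3 profiles (5 for Runx1 and Runx2). The most abundant gene of the macrophage, fibroblast, osteoclast and chondrocyte marker lists is named as well. Of 243 list symbols 210 were found.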

Additional observations from a re-analysis of the deposited data

Results flagged for a closer look

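The effect of injury differed between the strains for Runx1 and Runx2 in the unpaired fit, by the test of the difference itself. Strain and sex cannot be told apart in it, since every C3H library had high Xist and every B6 library high Y-linked genes. For Runx1 the difference, C3H minus B6, was 2.86 on the log2 scale (SE 0.46, limma adjusted p = 0.0113), and the injured region was higher in 2 of 2 C3H hearts and 3 of 3 B6 hearts. For Runx2 it was 1.87 (SE 0.39, limma adjusted p = 0.0337), with the injured region likewise higher in all 5 hearts that gave both regions. Both regions entered each difference. Between strains, C3H minus B6, Runx1 was at 1.45 in injured and -1.41 in uninjured regions, and Runx2 at 1.05 and -0.82. The call on Runx1 was lost without C3H injured 2, where its value was 3.02 and calls over all genes fell as well. That on Runx2 was lost with the animal as a fixed term (1.78, adjusted p = 0.0520) and held in 2 of the 11 fits that left out 1 library. Macrophage markers moved with these differences: 4 of 10 (Cd68, Adgre1, Lyz2 and Cd14) were called higher for the same difference, beside 1.50% of all genes tested, and their part in the result was not tested.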

How the results depend on the processing

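The 8 genes gave 4 to 5 calls for injury in C3H and 0 for injury in B6 under every alternative run, and Runx1, Runx2, Runx3 and Cbfb were called in C3H in each. For the difference of the effects (2 calls) the replicate block with the animal as a fixed term gave 1, and leaving out 1 library gave 0 to 2. For C3H against B6, injured regions (3 calls) gave 1 with a pseudocount of 0.5 and 0 to 3 with 1 library left out. Uninjured regions (2 calls) gave 1 with a filter of at least 50, 0 in a fit of the groups compared alone, and 0 to 2 with 1 library left out. The pairing changed no other call of the 8 genes except Runx2 between injured regions (random term, adjusted p = 0.0711). Over all genes, the difference had 231 calls, 491 with the fixed and 777 with the random block, 722 by DESeq2 and 152 without the trend. It had 83 without B6 uninjured 1 and 272 without B6 uninjured 3. Calls over all genes fell as well without C3H injured 2, so a call lost there is not particular to these genes. B6 had 2 calls and 45 by DESeq2. The cause of these shifts was not tested.

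Signs turned only among values that passed no test. Msx1 in C3H was -0.0725 under quantile scaling, which moved the median of all genes in C3H to -0.11. Msx2 in B6 was -0.32 under quantile scaling, -0.0407 by edgeR and -0.0745 by DESeq2, and -0.31 to 0.55 with 1 library left out. Between injured regions Msx2 was -0.00662 with a pseudocount of 4, -0.00386 under TMM, -0.0479 by edgeR, -0.0427 by DESeq2, and -0.28 to 0.20 with 1 library left out. With 1 library left out, Dlx5 ranged from -1.005 to 0.0881 in B6 and from -0.87 to 0.22 for the difference, where DESeq2 gave 0.0884, and Sox9 ranged from -0.63 to 1.28 between injured and from -1.48 to 0.0925 between uninjured regions. Runx3 between injured regions had an adjusted p of 0.0335 by DESeq2 and 0.0297 in a fit of those groups alone. Alternatives for the lists were added after seeing the data. Where 1 C3H injured library was left out, the other was assumed to vary like the other groups. Depth limits Dlx5 and Msx2 most.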
